A study of Mus musculus with 4 samples.

Results

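The 34 genes described here encode parts of heart muscle and its regulators, and were taken as a fixed list of symbols, matched to the gene symbols of the array platform. They comprise 19 sarcomere genes, 5 genes of calcium handling or peptide hormones, 7 transcription factor genes and 3 other muscle genes (Ankrd1, Cox6a2 and Smyd1). Named spots were found for 32 of the 34, among 14386 genes on named spots in all, and most had 2 spots. The cardiac myosin gene Myh7 and the cardiac troponin gene Tnni3 had no named spot. They have no array values here and enter the promoter search alone. In the study, total RNA from CGR8 mouse embryonic stem cells, grown in hanging drops as embryoid bodies to day 3 or day 10, was hybridised together with RNA of undifferentiated CGR8 cells at day 0, which the labels also call embryoid bodies. Each day has 2 arrays, both against day 0 RNA. The second array of each day is labelled a technical replicate, so a day is 1 pair of RNA samples, the SD covers technical error alone, and no significance test was possible. All samples come from 1 cell line, and the labels name no separate cultures.

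Heart muscle arises from mesoderm in which a small set of transcription factors (Gata4, Nkx2-5, Tbx5, Mef2c, the Hand factors and Tbx20) act together on shared target genes. Their targets include the thick and thin filament proteins of the sarcomere, the calcium pumps and channels that drive contraction, and the natriuretic peptides. Embryoid bodies are widely used to follow this sequence in culture, because mature ones often hold patches of beating cells. Whole embryoid bodies mix many cell types, so fewer cells of a type and less RNA per cell cannot be told apart in these values.

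Each value is a log2 ratio of the 2 channels, centred on the array median and averaged over the spots of a gene. The sources used here name neither dyes nor numerator; the deposited sign is kept, and "positive" and "negative" do not state which day was higher. Between 10.3% and 18.8% of the 46128 spots of an array had no value, and the arrays' number limits the precision. Of the genes usually high in undifferentiated cells, Dppa5a was at -2.74 and -2.69 at day 3 and at 0.41 and -2.85 at day 10. Its day 10 arrays therefore lay on opposite sides of 0. Pou5f1 was negative on all 4 arrays, with means of -0.89 ± 0.15 at day 3 and -1.39 ± 0.99 at day 10. Over the list these come from, 11 of 14 measured genes were negative on both day 3 arrays and 1 positive, against 31.8% and 32.9% of all genes. At day 10 the list was split, with 4 of 13 negative on both arrays and 4 positive, near the 30.8% and 30.0% of all genes. The positive gene at day 3 was Dppa2, named here after its values were seen, which was positive on all 4 arrays, with means of 0.61 ± 0.42 at day 3 and 1.15 ± 0.49 at day 10.

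Few cardiac genes passed a 2-fold limit on both arrays of a day, and so did few of all genes. To be called, a gene had to reach a log2 value of 1, or of -1, on each array of a day. At day 3 this held for 1 of 31 measured members, Tnnc1, on the negative side, against 2.80% of 13707 genes on either side and 1.03% on the negative side. The positive side held 0 members against 1.77% of genes. At day 10 the limit was reached by 0 of 32 members, against 3.54% of 13199 genes (2.15% positive and 1.39% negative). For day 10 minus day 3, where all 4 pairs of arrays had to pass, 0 of 31 members passed, against 3.54% of 12654 genes (1.82% positive and 1.72% negative). No member was beyond 2-fold on opposite sides on the arrays of a day, which 0.744% of genes were at day 3 and 1.48% at day 10, and 3 members were so between pairs of arrays of the 2 days, against 6.11% of genes. These member counts are near the background shares and no result about the list follows from them.

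The median over members was -0.08 at day 3, -0.20 at day 10 and -0.18 for the difference between days. The same medians over all genes were 0.01, -0.01 and -0.01. The median size of a member's mean, without its sign, was 0.37 at day 3 and 0.36 at day 10, against 0.34 and 0.39 over all genes. The day 3 median had another sign on the separate arrays, 0.02 and 0.10, while at day 10 the array medians were -0.23 and -0.16. On both day 3 arrays 12 members were positive and 9 negative, which is 38.7% and 29.0% of the 31 measured, against 32.9% and 31.8% of all genes. On both day 10 arrays 7 were positive and 15 negative, or 21.9% and 46.9% of 32, against 30.0% and 30.8% of all genes. The negative side thus held more cardiac genes than the positive side at day 10, with means from -1.01 to 0.87.

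The counts rest on the demand that both arrays pass. On day 3 array 1 alone 1 member was beyond 2-fold and on day 3 array 2 alone 6 were, against 14.4% and 12.8% of genes. On the separate day 10 arrays 5 and 6 members were beyond it, against 20.4% and 16.2% of genes, and no member was beyond it on both.

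**Figure D1:**
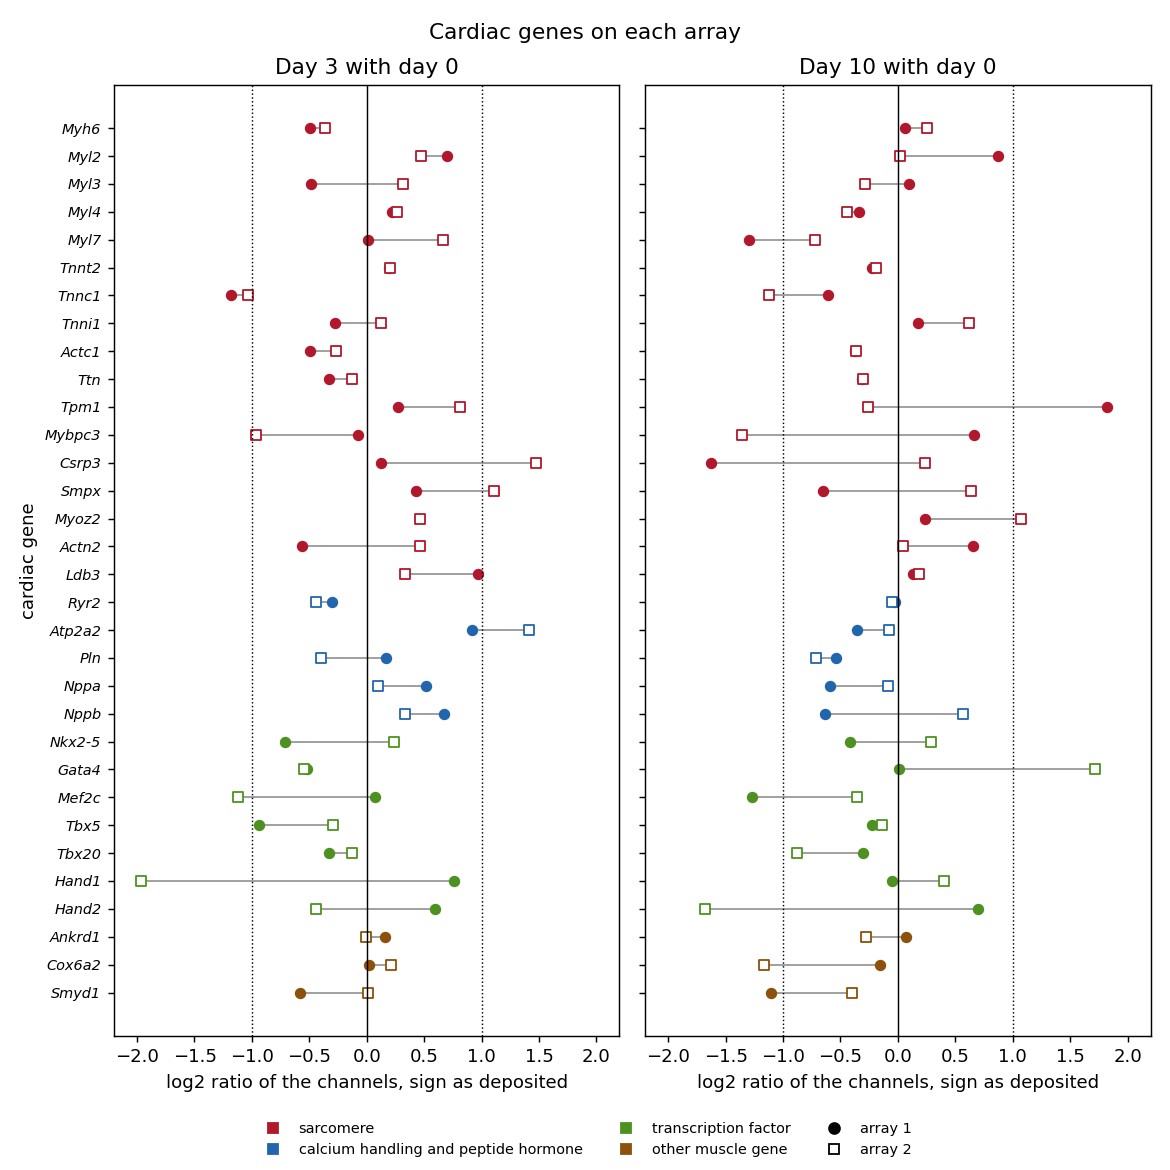
The log2 ratio of the 32 cardiac genes with a named spot on each array (filled circle, array 1; open square, array 2), with day 3 in the left panel and day 10 in the right, colours for the role and dotted lines at the 2-fold limit. Tnnc1 at day 3 is the 1 gene with both symbols beyond a dotted line, and pairs such as Hand1 at day 3 and Tpm1 at day 10 lie far apart.

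**Figure D2:**
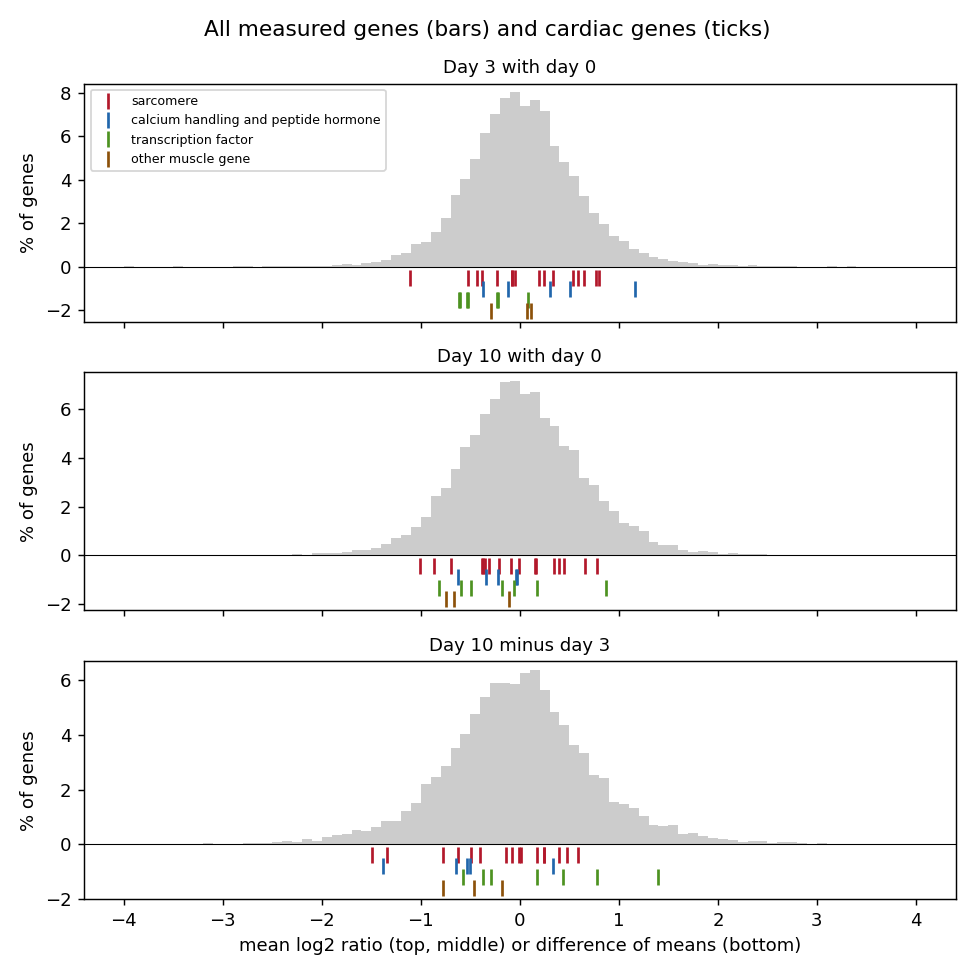
Share of all measured genes (grey bars, 0.1 wide, values beyond 4 drawn at the edge) by mean log2 ratio for day 3 and day 10 and by the difference of the means, with cardiac genes as ticks below in a colour for each role. The ticks lie within the body of the grey distribution, from -1.11 to 1.16 at day 3 and from -1.01 to 0.87 at day 10.

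The 19 sarcomere genes had a median of 0.07 over 16 measured at day 3 and -0.09 over 17 at day 10, with 1 and 0 beyond 2-fold. Tnnc1 encodes the calcium-binding troponin C of cardiac and slow skeletal muscle. It was at -1.18 and -1.04 at day 3, a mean of -1.11 ± 0.10 (SD of 2 technical arrays, as for all means here), and at -0.61 and -1.12 at day 10, a mean of -0.86 ± 0.36. All 4 arrays were on the negative side, and the days overlapped. Both spots were negative wherever they had a value, with -0.90 and -1.46 on day 3 array 1 and -1.11 and -0.96 on day 3 array 2. The mean ranked 293 from the lowest of 13707 genes at day 3, and 900 from the lowest of 13199 at day 10. The call at day 3 was near the limit. It was lost when only spots with a value on all 4 arrays were used (-1.01) and when each array's trend with brightness was removed (-1.07), since 1 of the arrays then fell inside the limit.

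None of the other thin filament genes was beyond the limit on both arrays of a day, and Tpm1 was beyond it on 1 day 10 array. Actc1, the cardiac alpha-actin gene, was at -0.50 and -0.27 at day 3 and at -0.38 and -0.36 at day 10, so all 4 arrays were negative and the days did not differ beyond their spread. Tnnt2 encodes cardiac troponin T, which ties the troponin complex to tropomyosin. It was at 0.19 and 0.20 at day 3 and at -0.22 and -0.19 at day 10, a difference of -0.40 ± 0.02. The days did not overlap for Tnnt2, although the size of the difference was well under 2-fold and 1 of its 2 spots had no value on array 1 of either day. Tnni1, the slow troponin I gene that the embryonic heart also uses, was at -0.28, 0.12, 0.18 and 0.62 on the day 3 and then the day 10 arrays. Tpm1 encodes alpha-tropomyosin, the coil that lies along actin. It was at 0.27 and 0.81 at day 3 and at 1.82 and -0.26 at day 10, and both day 10 values came from the same spot, since the other had none. Its mean of 0.78 at day 10 was among the 3 highest of the members, with an SD of 1.47, larger than the mean.

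Promoter windows of 300 bases, 250 before to 50 after the start, were read from RefSeq (GRCm38.p6) for 29 of the 34 members. These include Myh7 and Tnni3, which had no array values. The windows of 3 genes are printed because their values mark the extent of the list: Tnnc1 as the 1 called member, Myl7 as the lowest mean at day 10, and Actc1 as a sarcomere gene with 4 close values. Capitals mark matches to the motifs searched, which were TATAAA on the printed strand alone and, on both strands, AGATAA (bound by GATA factors), CACTTNA (bound by NK2 factors such as Nkx2-5), the CArG box of serum response factor and the MEF2 site. A TATAAA can lie inside a MEF2 site, so these searches are not independent.
Tnnc1, chr14:31208062-31208361, plus strand: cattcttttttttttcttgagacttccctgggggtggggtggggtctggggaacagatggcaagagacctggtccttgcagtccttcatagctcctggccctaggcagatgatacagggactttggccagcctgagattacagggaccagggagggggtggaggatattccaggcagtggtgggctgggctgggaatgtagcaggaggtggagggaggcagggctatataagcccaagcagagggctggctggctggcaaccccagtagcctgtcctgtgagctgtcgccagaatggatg
Myl7, chr11:5898733-5899032, minus strand: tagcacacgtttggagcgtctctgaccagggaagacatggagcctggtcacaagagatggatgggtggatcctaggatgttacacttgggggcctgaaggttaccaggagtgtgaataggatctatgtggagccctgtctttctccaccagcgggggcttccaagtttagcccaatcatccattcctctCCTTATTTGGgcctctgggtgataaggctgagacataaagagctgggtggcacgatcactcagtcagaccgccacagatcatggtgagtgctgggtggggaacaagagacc
Actc1, chr2:114052826-114053125, minus strand: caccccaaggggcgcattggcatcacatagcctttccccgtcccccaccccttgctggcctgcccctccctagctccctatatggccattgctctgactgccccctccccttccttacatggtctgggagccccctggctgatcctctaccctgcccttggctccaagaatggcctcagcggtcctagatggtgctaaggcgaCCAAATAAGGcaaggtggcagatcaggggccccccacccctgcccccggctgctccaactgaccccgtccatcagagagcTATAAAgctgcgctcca
The Tnnc1 window had no match, which says only that these letters are not in it. The Myl7 window had a CArG box from -61 to -52 and the Actc1 window one from -47 to -38, counted with the first base of the transcript as 0, and Actc1 also had TATAAA from 33 to 38, inside the transcript.

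Over all members with a window, a CArG box was found for 4 of 29 (Myl3, Myl7, Actc1 and Ldb3), against 1.81% of 27025 genes. The day 3 means of these 4 were -0.08, 0.34, -0.38 and 0.65 and their day 10 means -0.09, -1.01, -0.37 and 0.16, so genes with this motif lay on both sides. AGATAA was found for 7 of 29 members against 12.7% of genes, TATAAA for 5 against 9.77%, CACTTNA for 4 against 13.1% and the MEF2 site for 3 (Ttn, Mybpc3 and Myoz2) against 3.70%. A match is a stretch of letters and no evidence of binding.

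Among the thick filament genes, the atrial regulatory light chain gene Myl7 had the lowest mean of the members at day 10. It was at 0.01 and 0.66 at day 3 and at -1.29 and -0.72 at day 10, so the arrays of the days did not overlap, and the difference was -1.35 ± 0.61. Over the 4 pairs of arrays the difference ran from -1.96 to -0.73, so the 2-fold limit was not passed in each. Its 2 spots disagreed on day 10 array 1, with -2.50 and -0.09, and lay closer on array 2, with -0.63 and -0.82. Myl4, the atrial essential light chain gene, had tighter values at 0.22 and 0.26 at day 3 and at -0.33 and -0.44 at day 10. Its difference of -0.63 ± 0.08 had the same sign as that of Myl7.

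The ventricular light chain gene Myl2 was positive on every array, at 0.70 and 0.47 at day 3 and at 0.87 and 0.02 at day 10. The days overlapped for Myl2. Myl3, the other ventricular light chain gene, was on both sides of 0 within each day, at -0.49, 0.32, 0.10 and -0.28. Myh6, the alpha-myosin heavy chain gene that drives fast contraction, was at -0.49 and -0.37 at day 3 and at 0.06 and 0.26 at day 10. Its days did not overlap, and the difference of 0.59 ± 0.17 had the sign opposite to that of the atrial light chains. The 2 Myh6 spots lay on opposite sides of 0 on day 10 array 1, at -0.26 and 0.38. Each spot was above its own day 3 values on both day 10 arrays. Mybpc3, which encodes cardiac myosin-binding protein C, was at -0.08 and -0.96 at day 3 and at 0.66 and -1.36 at day 10, and its SD at day 10, 1.43, exceeded its mean of -0.35.

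The genes of titin and the Z-disc, where thin filaments are anchored, were mixed. Ttn was spotted with 4 different sequences on 8 spots. Its gene means were even, at -0.33, -0.13, -0.32 and -0.31, but the 4 sequences ran from -1.58 to 0.50 at day 10 and from -0.91 to 0.23 at day 3. The even gene values are thus averages of sequences that disagreed. On day 10 array 1 the first sequence was at -2.53 and the second at 1.90, each from a single spot. The other sequences had no value there, so their day 10 values came from array 2 alone. Actn2, the sarcomeric alpha-actinin gene, had 2 sequences that lay at 1.40 and -0.22 at day 10, the first with 2.60 on array 1 and 0.21 on array 2. Csrp3 encodes the muscle LIM protein of the Z-disc, and was at 0.13 and 1.47 at day 3 and at -1.63 and 0.24 at day 10. It had the second highest mean at day 3, 0.80 ± 0.95, and at day 10 -0.70 ± 1.32, and the days overlapped. Smpx, a small muscle protein gene, was at 0.43 and 1.10 at day 3 and at -0.65 and 0.63 at day 10. Ldb3 encodes a PDZ-LIM protein that binds alpha-actinin, and was positive on every array, at 0.97, 0.33, 0.13 and 0.19. Myoz2, a calcineurin-binding Z-disc gene, had no value on day 3 array 1, and stood at 0.46 on array 2 and at 0.24 and 1.07 at day 10.

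Calcium handling genes held the highest day 3 mean of the list. Atp2a2 encodes the calcium pump SERCA2, which refills the internal calcium store and is made in many cell types besides heart muscle. It was at 0.91 and 1.41 at day 3 and at -0.36 and -0.08 at day 10. Both spots were above 0.8 on both day 3 arrays and below 0 on both day 10 arrays. The day 3 mean was 1.16 ± 0.35, rank 405 from the highest of 13707 genes, with array 1 inside the limit. The difference between days was -1.38 ± 0.40, and the differences between single arrays ran from -1.77 to -0.99. Without centring all 4 pairs passed the limit, so Atp2a2 was then called. It was the 1 member then called between the days, against 3.52% of all genes.

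Its inhibitor phospholamban, encoded by Pln, was at 0.16 and -0.40 at day 3 and at -0.54 and -0.71 at day 10. The days did not overlap for Pln, but its spots read -1.18 and 0.10 on day 10 array 1 and -0.27 and -1.15 on array 2. Ryr2, the calcium release channel gene of heart muscle, was at -0.31 and -0.44 at day 3 and near 0 at day 10, at -0.03 and -0.05. Its difference, 0.33 ± 0.10, had the sign opposite to those of the pump and its inhibitor. The Ryr2 spots lay far apart on day 3 array 1, at -0.92 and 0.31. Only the second had a value on day 10 array 1, and for that spot alone the days overlapped. Nppa encodes the atrial natriuretic peptide, an early marker of working heart muscle. It was at 0.51 and 0.10 at day 3 and at -0.59 and -0.09 at day 10, a difference of -0.65 ± 0.46. Of its 2 spots, 1 was positive wherever it had a value and the other was negative. Day 3 array 1 had the first alone and day 10 array 1 the second alone, so neither spot changed side. Nppb, the brain natriuretic peptide gene, was positive at day 3 with 0.67 and 0.33 and split at day 10 with -0.63 and 0.56. None of these 5 genes was beyond the limit on both arrays of a day. Their median was 0.30 at day 3 and -0.22 at day 10, and no mean at day 10 was above 0.

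The transcription factor genes had the lowest median of the 3 larger roles at day 3, -0.52, and -0.18 at day 10, and none of the 7 was beyond the limit on both arrays of a day. Gata4, Mef2c, Hand1 and Hand2 were each beyond it on at least 1 single array. No transcription factor was positive on both day 3 arrays and 3 of 7 (Gata4, Tbx5 and Tbx20) were negative on both. The shares of all genes were 32.9% and 31.8%, and 7 genes are too few to set apart from them. Gata4, a zinc-finger factor of heart and endoderm, was at -0.52 and -0.54 at day 3. At day 10 it was at 0.01 and 1.72, each from a different spot, since each of its 2 spots had a value on 1 day 10 array. Its day 10 mean, 0.87 ± 1.21, was the highest of the members, and the difference between days was 1.40 ± 1.21. The days did not overlap for Gata4, but at day 3 its spots also lay apart, at -0.92 and -0.11 on array 1 and at -1.16 and 0.08 on array 2.

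Nkx2-5, the homeobox gene of the early heart field, was on both sides of 0 at both days, at -0.71 and 0.24 at day 3 and at -0.41 and 0.29 at day 10. Tbx5, a T-box factor of the first heart field, was negative on every array, at -0.94, -0.30, -0.23 and -0.14. Its difference between days of 0.43 ± 0.46 was smaller than its SD. Tbx20, another T-box factor, was also negative on every array, at -0.32, -0.12, -0.30 and -0.88, and its 2 spotted sequences had day 10 means of -0.38 and -0.87. Mef2c was at 0.07 and -1.12 at day 3 and at -1.27 and -0.35 at day 10, which gave the third lowest mean at day 10, -0.81 ± 0.65. Hand1 and Hand2, the basic helix-loop-helix factors of the ventricles, had the widest spread of the list at day 3 (Hand1, SD 1.93) and at day 10 (Hand2, SD 1.68). Hand1 was at 0.76 and -1.97 at day 3, and at -0.05 and 0.40 at day 10. Hand2 was at 0.60 and -0.44 at day 3, and at 0.70 and -1.68 at day 10.

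None of the 3 other muscle genes was beyond the limit on both arrays of a day, and Cox6a2 and Smyd1 were each beyond it on 1 day 10 array. Ankrd1, a stress-responsive ankyrin repeat gene of muscle, was at 0.15, -0.01, 0.07 and -0.28. Cox6a2, the muscle form of a cytochrome c oxidase subunit, was at 0.02 and 0.21 at day 3 and at -0.15 and -1.17 at day 10. Its spots read -1.86 and -0.47 on day 10 array 2, so 1 spot carried most of that value. Smyd1, a methyltransferase gene needed for sarcomere assembly, was at -0.58 and 0.01 at day 3 and at -1.10 and -0.40 at day 10.

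The day 10 and day 3 arrays were also set against each other through the day 0 channel, which is taken as common to them. Every day 10 array was below every day 3 array for 8 of 31 members (Myl4, Myl7, Tnnt2, Ldb3, Atp2a2, Pln, Nppa and Cox6a2), or 25.8%, against 22.7% of all genes. Every day 10 array was above for 5 (Myh6, Tnni1, Ryr2, Gata4 and Tbx5), or 16.1%, against 20.7%. Both shares are near the background. Ldb3, Pln, Cox6a2, Tnni1, Ryr2 and Tbx5 each had a spot whose own values overlapped between the days. Both arrays of a day lay on 1 side of 0 and both of the other day on the other side for 8 of 31 members (25.8%), against 14.0% of all genes, and 6 of these (19.4% of 31) went from positive to negative, against 7.68% of all genes, and 2 (6.45%) from negative to positive, against 6.27%. This pattern was not tested. It depended on centring for Myl7 and Cox6a2, at 0.011 and 0.016 on day 3 array 1, and for Gata4, at 0.011 on day 10 array 1. The medians subtracted from these arrays were -0.029 and -0.015, so the values of these genes there were negative before centring. Nppa is among the 6, although neither of its spots changed side. Further genes of the 8 had a spot on both sides of 0 within a day. At day 3 these were Myl7 (-0.19 and 1.27) and Gata4 (-0.11 and 0.08). At day 10 they were Myh6 (-0.26 and 0.40) and Cox6a2 (0.14 and -1.86). Both days share the day 0 RNA, so their values are not independent.

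Error differed between bright and dim members. Spot brightness was estimated from the whole-number ratios in the table, and genes were ranked by it. Between 59.4% and 62.1% of an array's values were such ratios, and all others were set to the brightest level. In the brightest 25% of genes were 10 members (Myl2, Tnnt2, Tnnc1, Actc1, Atp2a2, Tbx5, Tbx20, Ankrd1, Cox6a2 and Smyd1). Their median SD between arrays was 0.15 at day 3 and 0.30 at day 10, against 0.14 and 0.20 for all genes in that bright set. Across these 10, Pearson r between the arrays was 0.900 at day 3 and 0.352 at day 10, against 0.737 and 0.570 across all genes of the set. Across all measured members r was only 0.256 at day 3 and -0.027 at day 10, against 0.271 and 0.215 across all genes. Genes of an array share its hybridisation, and these correlations are descriptions. In the dimmest 25% were 7 members, Tpm1, Mybpc3, Csrp3, Smpx, Nppa, Nppb and Hand1. The median SD of these was 0.48 at day 3 and 0.91 at day 10, against 0.51 and 0.59 for all genes in that dim set. Across these 7, r between the arrays was -0.277 at day 3 and -0.538 at day 10, against 0.025 and 0.034 across the dim set.

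**Figure D3:**
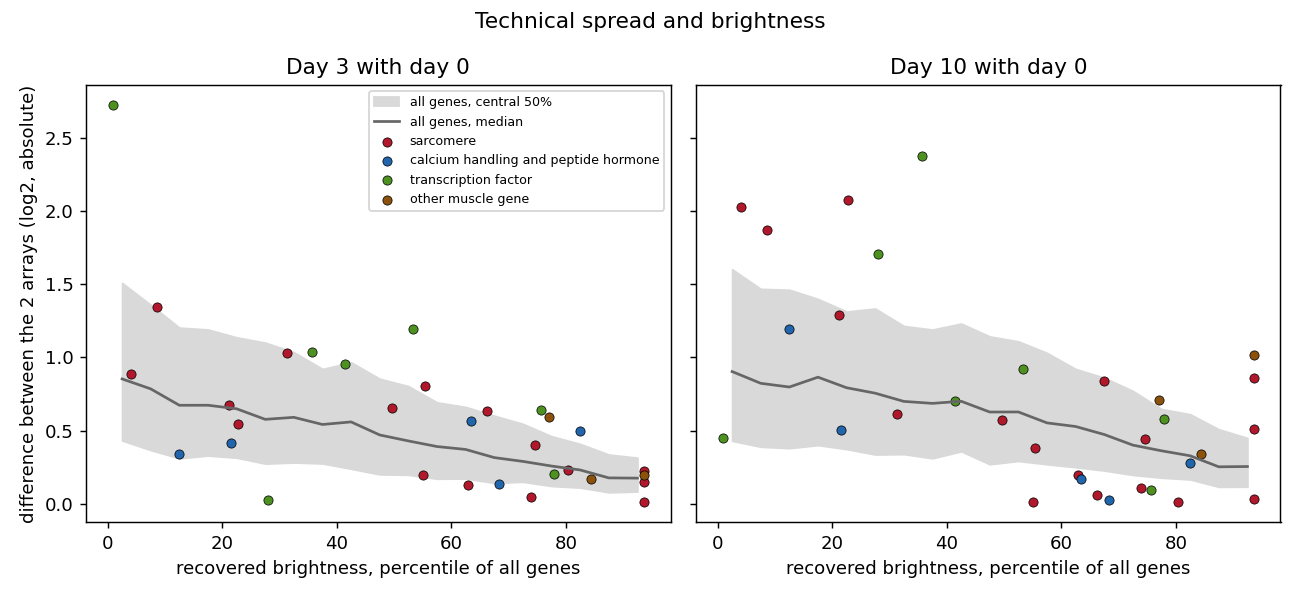
Absolute log2 difference between the 2 arrays of a day (vertical) by percentile of recovered brightness (horizontal) for the cardiac genes, coloured by role, over the median and central 50% of all genes in steps of 5 percentiles. The differences shrink towards bright genes at both days, and Hand1 at percentile 0.89 has the widest difference at day 3.

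Duplicate spots gave a second view of the error. For members with 2 spots that both had a value, the median difference between the spots was 0.34 and 0.28 at day 3 and 0.65 and 0.30 at day 10, array by array. Over all such genes it was 0.35, 0.33, 0.54 and 0.41. Spots of 1 gene lay more than 1 apart for 4 of 23, 4 of 24, 6 of 20 and 1 of 24 members in the same order, against 21.6%, 18.9%, 30.1% and 23.5% of all such genes. The spread within an array was thus about as large as the member means themselves, whose median size was 0.37 at day 3 and 0.36 at day 10.

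**Figure D4:**
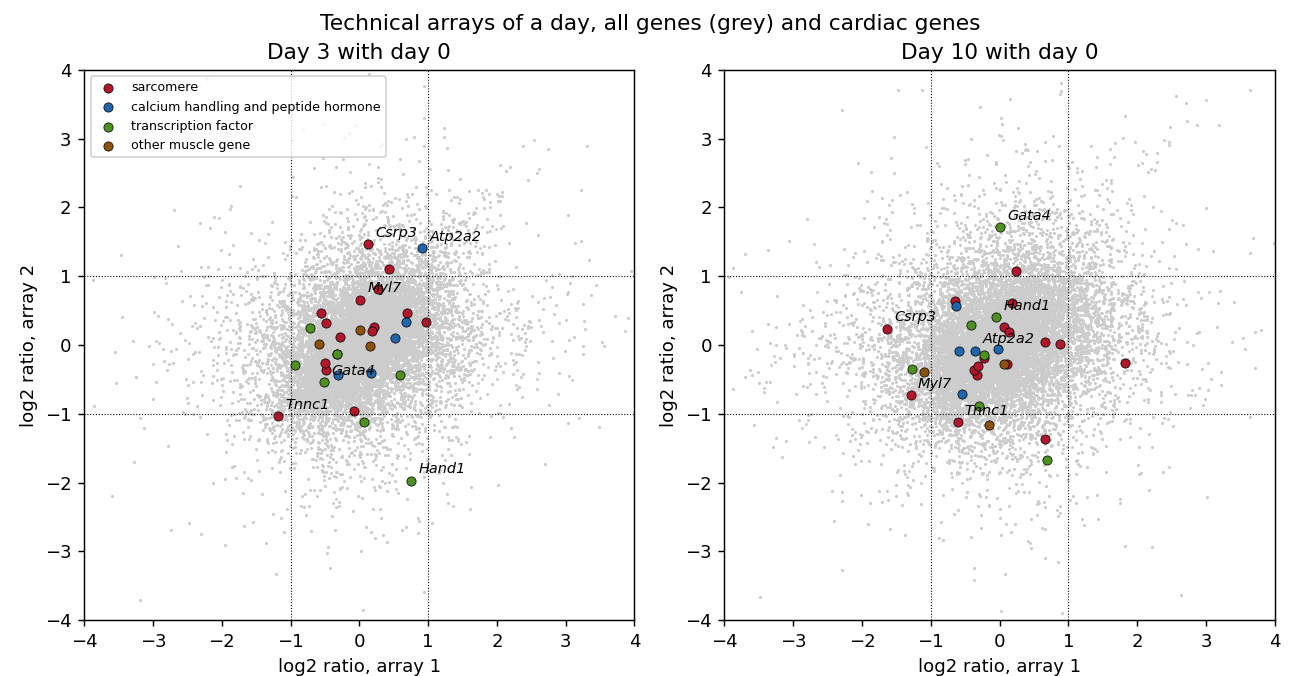
Array 2 against array 1 of each day (log2 ratios, cut at 4 on each side) for all genes in grey and the cardiac genes in a colour for each role, with dotted lines at the 2-fold limit. Tnnc1 is the cardiac gene in a lower left or upper right corner at day 3, Atp2a2 lies just outside the upper right corner, and no cardiac gene is in those corners at day 10.

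Genes upstream of the heart programme were followed in a list of 23 progenitor and mesoderm genes. Of these, 1 of 23 measured was beyond 2-fold at day 3, against 2.80% of all genes, and 0 of 19 at day 10, against 3.54%, so neither count stands away from the background. The gene was Mesp1, the transcription factor of the earliest cardiac mesoderm, at 2.04 and 1.89 at day 3, with 1.55 on the day 10 array that had a value. Isl1, which marks second heart field progenitors, was at 0.72, -0.62, 0.80 and 0.25. The list was positive on both day 3 arrays for 12 of 23 genes and negative for 4, against 32.9% and 31.8% of all genes, and its median was 0.26 at day 3 and 0.01 at day 10.

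Of 29 measured genes in a list of other heart genes, 2 were beyond 2-fold at day 3, both positive, against 2.80% of all genes on either side, and 0 of 28 at day 10, against 3.54%. The day 3 pair were the Notch target genes Hey1, at 1.12 and 1.43, and Hey2, at 1.04 and 1.11, which pattern the heart chambers and are also active in blood vessels. Hey1 was positive at day 10 too, at 0.73 and 1.01, while Hey2 was at 0.05 and -0.63. Myocd, a cardiac and smooth muscle coactivator gene, was at 0.09, -0.07, 0.21 and 1.26. On both arrays, 10 of 29 of this list were positive and 8 negative at day 3, and 14 of 28 positive and 7 negative at day 10, against 30.0% and 30.8% of all genes at day 10. Its median was 0.01 at day 3 and 0.20 at day 10, so at day 10 it lay on the side opposite to the members' median of -0.20. Hey1, Hey2 and Mesp1 had brightness percentiles of 22.0, 12.5 and 11.5.

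Markers of other muscle types were read beside the cardiac genes. In the skeletal muscle list 1 of 21 genes was beyond 2-fold at day 3 and 1 of 20 at day 10, against 2.80% and 3.54% of all genes, with 12 of 21 negative on both day 3 arrays (57.1%, against 31.8% of all genes). The gene was in both cases Myf6, a myogenic factor gene, at -1.38, -1.19, -1.46 and -1.11. Acta1, the skeletal actin gene, was at -2.95, -0.53, -0.18 and 0.32, and Myog at -0.11, -0.28, 0.15 and 0.73. In the smooth muscle list 0 of 10 and 0 of 9 were beyond it, and Acta2 had a value on 1 array of each day, -1.49 and 0.08. Day 3 list medians were -0.22 for skeletal and 0.03 for smooth muscle, and day 10 medians 0.08 and -0.12. Of the list for pluripotent cells, 2 of 14 genes were beyond 2-fold at day 3, Dppa5a and Zfp296, both negative, against 1.03% of all genes on that side. At day 10, 0 of 13 were beyond it, against 3.54% of all genes. Between the days 1 of 13 was called, Fgf4, with a difference of 1.60 ± 0.41. The share of all genes called between the days was also 3.54%. The part of these other cell types in the cardiac values was not tested.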

How the data were processed

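The deposited table holds 1 value per spot and array, read here as a log2 ratio between channels. The base follows from the values: between 3.22% and 3.86% of an array's values were ratios of whole numbers up to 100 in base 2, against at most 0.046% in base e and 0.13% in base 10. The scanner, dyes, background treatment, normalization and rule for missing values are unknown, as the sources used here do not give what the authors did.

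Spots were named through the platform's annotation, with symbols checked by Entrez ID against RefSeq (GRCm38.p6), which changed 0. Spots with several symbols (588) or none (12996) and 480 control spots were left out. Each array was centred on its median without controls, then spots were averaged by gene. Members, lists and alternatives were chosen with earlier results of these data known. Values on every array are given for members called, for the 3 highest and 3 lowest at each day and for 8 measured key genes; the others are given by value where they fill a role. From other lists, called genes and 8 markers are named. For brightness, the smallest whole numbers up to 10000 whose ratio gives a value were found, and their geometric mean was taken on the log2 scale. Values that are no such ratio count as bright. The steps were tested on simulated data. Python 3.11.15, numpy 2.4.6, pandas 2.3.3 and matplotlib 3.10.9 were used.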

Additional observations from a re-analysis of the deposited data

Results flagged for a closer look

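Some genes had both arrays of day 3 on 1 side of 0 and both arrays of day 10 on the other. The difference between the days was not tested, because each day is 1 pair of RNA samples, and 14.0% of all genes show the same pattern. Among the cardiac genes the difference, day 10 minus day 3, was -1.38 for Atp2a2, -1.35 for Myl7, -0.78 for Cox6a2, -0.65 for Nppa, -0.63 for Myl4 and -0.40 for Tnnt2. It was 0.59 for Myh6 and 1.40 for Gata4. Of the other genes named, it was 0.63 for Myog and 1.60 for Fgf4. Neither spot of Nppa changed side by itself. Myh6, Myl7, Cox6a2 and Gata4 each had a spot with values on both sides of 0 within a day. Before centring, Myl7, Cox6a2 and Gata4 did not show the pattern.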

How the results depend on the processing

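The number of members beyond 2-fold moved with several choices. Without centring, 1 member was called between the days in place of 0, against 3.52% of genes. With spots measured on all 4 arrays, and with the brightness trend removed, 0 were called at day 3 in place of 1. The shares of genes were then 3.20% and 2.66%. With a limit of 1.5-fold on both arrays, 2 members were called at day 3, 2 at day 10 and 2 between the days, against 11.7%, 14.0% and 10.3% of genes. With the limit on the mean alone these were 2, 1 and 4, against 7.97%, 10.6% and 16.2% of genes. The member median at day 10 was -0.15 with the brightness trend removed and -0.29 in the brightest 25% of genes, an alternative added after seeing the data. With each array left out in turn, the count ranged from 1 to 6 at day 3, from 5 to 6 at day 10 and from 0 to 5 between the days. The shares of all genes called then ranged from 12.8% to 14.4%, from 16.2% to 20.4% and from 10.0% to 15.4%. The median then ranged from 0.016 to 0.11 at day 3, from -0.23 to -0.16 at day 10 and from -0.27 to -0.08 between the days. Tnnc1 at day 3, the 1 member called, was negative under each of these alternatives. Members called on 1 array alone could change sign on the other, as Tpm1 and Csrp3 did at day 10 and Hand1 at day 3. No paired analysis was possible because the labels give no replicate numbers that the days share. Values of dim genes are the least certain.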
